A study of Mus musculus with 84 samples.

Results

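The MKOS reprogramming factors are Myc, Klf4, Pou5f1 (which encodes Oct4) and Sox2, and all 4 genes were present among the 18909 genes with deposited counts. They were chosen by symbol and not by a cutoff on a measured value, with earlier results of these data known. Their read counts can come both from the endogenous gene and from the doxycycline-inducible MKOS-ires-mOrange cassette, and the deposited counts do not separate the 2 sources. Expression was measured by STRT RNA-seq, which reads each transcript from its 5′ end, and 10 groups had 3 biological replicates each. The paper describes the reprogramming vector as polycistronic, so the factors of the cassette share a transcript. How far the later factors of that transcript were read from its 5′ end is not known, so the counts need not give total factor RNA.

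The reprogramming cells were transgenic MEFs (mouse embryonic fibroblasts) of the TNG MKOS line, labelled as strain background 129 and taken from E12.5 chimeric embryos of both sexes. In this line the cassette sits at the Sp3 locus together with an rtTA driven by the CAG promoter, and a GFP reporter disrupts 1 allele of Nanog. These cells were infected with a retroviral vector that expressed either a blue fluorescent protein (Cont) or constitutively active Smad3 (Sm3CA), were cultured among wild-type MEFs in ESC medium with LIF, 300 ng/ml doxycycline and vitamin C, and were sorted for mOrange after 3, 6, 8 or 10 days. The MEF group was wild-type 129 fibroblasts without a cassette or doxycycline, grown with FGF2 and heparin, so it is not the uninduced state of the transgenic cells. The ESC group was the TNG MKOS embryonic stem cell line, which carries the cassette and was grown without doxycycline.

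The factors are transcription factors with different roles in the change from a fibroblast to a pluripotent cell. Oct4 is a POU-domain protein that binds DNA together with the HMG-box protein Sox2, and the pair holds up the pluripotency network of embryonic stem cells. Klf4 is a zinc-finger protein that acts with them and also activates epithelial genes, and Myc is an E-box binding protein that drives growth and ribosome biogenesis in many dividing cells, fibroblasts included.

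Summed over wells, a library held 1008596 to 2296059 reads, and replicates of a group correlated at 0.925 to 0.976 outside the ESC group. ESC replicate 2 stood apart from the other ESC libraries, with a correlation of 0.836 and 0.816 against 0.956 between replicates 1 and 3. It held 21.7 normalized counts of Nanog, where the other libraries held 299 and 286, and 370 of Gapdh, where they held 14210 and 11890. Fold changes of the factors against the ESC group are therefore also given without it, while the marker sums include it. The 8 fibroblast markers summed to 4360 to 5815 normalized counts in MEFs and to 2.74 to 10.8 in ESCs, where 2 of them had no read. The 6 ESC markers summed to 8.89 to 11.9 in MEFs and to 27950 to 53310 in ESCs. Most of each ESC sum was Dppa5a, with 26860, 48420 and 23190 in replicates 1, 2 and 3.

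The genes lie at 4 separate places in the GRCm38 genome. Pou5f1 is at chr17:35506018-35510772 on the plus strand, Sox2 at chr3:34650405-34652461 on the plus strand, Klf4 at chr4:55527143-55532466 on the minus strand and Myc at chr15:61985391-61990374 on the plus strand. The cassette locus, Sp3, is at chr2:72936427-72980446 on the minus strand. Sox2 lies within Sox2ot, a non-coding gene on the same strand, which held at most 4 reads in any group of libraries.

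The promoters of the endogenous genes are shown because STRT reads a transcript from its 5′ end, near where these windows end. A transcript of the cassette begins at a promoter of its own, and the counts hold no read positions. The RefSeq promoter table for GRCm38.p6 held 3 of the 4 genes, and each line gives the 250 bases before the RefSeq start site, 5′ to 3′ on the strand of the gene. These starts differ from the GENCODE starts given above, most of all for Sox2. Capitals mark motif matches on either strand, and neighbouring matches can share bases. The motifs are the GC box GGGCGG (bound by Sp and Klf proteins), the Klf motif CCACCC and the E-box CACGTG (bound by Myc with Max). The others are the partial octamer ATGCAAA (from the octamer bound by POU proteins) and the Sox motif ACAAAG.
Pou5f1 promoter (chr17:35505782-35506031, plus strand): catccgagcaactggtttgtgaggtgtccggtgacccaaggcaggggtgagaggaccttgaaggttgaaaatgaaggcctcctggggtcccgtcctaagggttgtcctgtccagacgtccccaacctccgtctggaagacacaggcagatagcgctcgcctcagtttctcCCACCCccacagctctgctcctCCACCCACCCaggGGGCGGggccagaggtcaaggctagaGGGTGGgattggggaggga
Sox2 promoter (chr3:34649745-34649994, plus strand): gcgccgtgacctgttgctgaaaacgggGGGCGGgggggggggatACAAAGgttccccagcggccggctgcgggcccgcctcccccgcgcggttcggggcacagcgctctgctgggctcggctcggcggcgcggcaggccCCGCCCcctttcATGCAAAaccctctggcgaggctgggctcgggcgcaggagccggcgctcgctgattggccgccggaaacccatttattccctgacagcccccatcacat
Klf4 promoter (chr4:55532476-55532725, minus strand): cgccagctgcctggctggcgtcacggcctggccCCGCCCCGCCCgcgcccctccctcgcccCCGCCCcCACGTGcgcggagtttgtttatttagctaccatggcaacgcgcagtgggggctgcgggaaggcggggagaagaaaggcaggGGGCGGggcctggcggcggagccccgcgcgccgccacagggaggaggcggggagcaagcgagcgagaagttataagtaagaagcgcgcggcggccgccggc
The Pou5f1 window held 4 matches to the Klf motif and 1 GC box. The Sox2 window held 2 GC boxes, 1 partial octamer 99 bases before the start and 1 Sox motif 206 bases before it. The Klf4 window held 4 GC boxes and 1 E-box. Of 32851 promoter windows of the same length, 32.7% held the GC box, 28.1% the Klf motif, 16.5% the Sox motif, 6.02% the E-box and 4.12% the partial octamer. The partial octamer and the E-box were thus the least common of the 5.

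The first question was how far each factor stood above wild-type MEFs once the cassette had been induced. Pou5f1 and Sox2 appeared by day 3, Klf4 did not differ from MEFs beyond its spread, and Myc was lower on day 3 than in MEFs. Of the 4 factors, 3 were called at an adjusted p under 0.05 in Cont day 3 against MEF, where 43.4% of the genes tested were called, and 3 in Sm3CA day 3 against MEF, where 43.1% were called. With shares of that size, a call here does not set the factors apart from other genes.

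Pou5f1, the gene of the central pluripotency factor, had 0 reads in each of the 3 MEF libraries, which allows up to 3 reads per library or a mean of 3.06 normalized counts (reads divided by the size factor of the library). On day 3 its reads were 28, 11 and 24 in the Cont libraries and 27, 17 and 16 in the Sm3CA libraries. All 6 libraries stood above all MEF libraries, and the group means were at least 6.40-fold (Cont) and at least 5.79-fold (Sm3CA) above the MEF limit, with adjusted p = 5.97e-10 and 1.61e-09 in edgeR's quasi-likelihood test. RefSeq lists 5 further copies of Pou5f1 (Pou5f1-rs) that have no row of their own in the counts, so reads that could map to them are uncertain.

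Sox2, the partner of Oct4, had 0, 2 and 1 reads in the MEF libraries. On day 3 it had 26, 10 and 31 reads in Cont and 26, 14 and 35 in Sm3CA, again without overlap with MEFs. The ratio of summed reads to MEFs, scaled by size factors, was 21.3 in Cont (95% counting interval 6.98 to 106) and 22.3 in Sm3CA (7.34 to 111), with adjusted p = 1.60e-05 and 8.61e-06 in edgeR. The wide intervals come from the 3 reads in all MEF libraries. Without MEF replicate 2, which held 2 of those reads, the fitted log2 fold changes rose from 4.34 to 5.19 in Cont and from 4.45 to 5.29 in Sm3CA.

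Klf4 was already detected in wild-type MEFs. The MEF libraries held 27.8, 16.3 and 19.9 normalized counts of it, the Cont libraries of day 3 held 13.4, 18.2 and 19.5, and the Sm3CA libraries of day 3 held 15.4, 16.7 and 20.9. The groups overlapped, and the log2 fold changes against MEFs were -0.20 ± 0.36 (SE) in Cont and -0.16 ± 0.36 in Sm3CA, with adjusted p = 0.682 and 0.744 in edgeR.

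Myc, the first factor of the cassette, was highest in wild-type MEFs. They held 92.2, 73.8 and 70.9 normalized counts, the Cont libraries of day 3 held 25.0, 37.6 and 29.3, and the Sm3CA libraries of day 3 held 32.2, 28.8 and 50.1. Every MEF library stood above every day 3 library. The level fell by 1.26 ± 0.31 (SE) on the log2 scale in Cont (adjusted p = 8.68e-04 in edgeR) and by 0.98 ± 0.30 in Sm3CA (adjusted p = 0.00693). Fibroblast markers moved with it, from the MEF range above to 887 to 1484 in Cont and 1123 to 1737 in Sm3CA, and their part in the fall of Myc was not tested. In such bulk samples fewer cells of a type and less RNA per cell cannot be told apart.

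**Figure D1:**
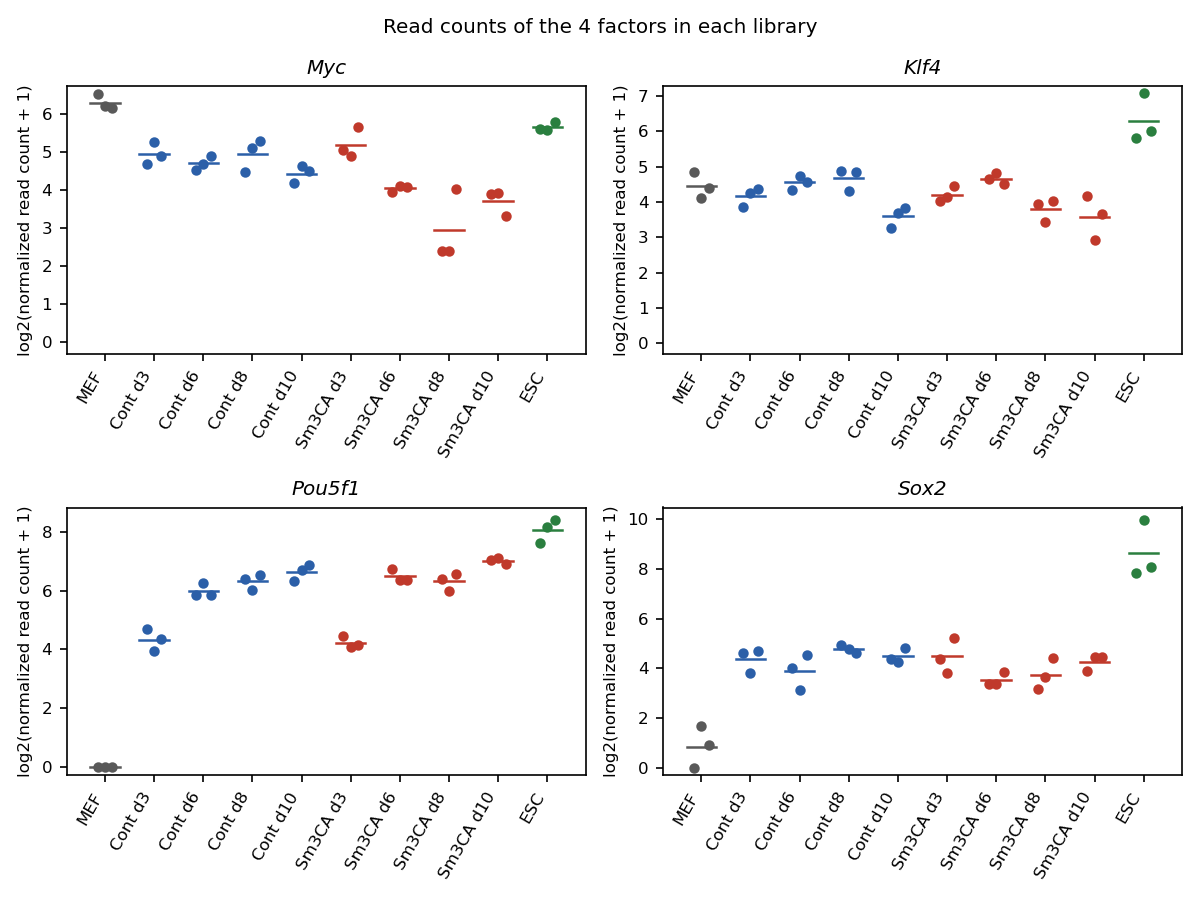
Each point is 1 library and each bar the mean of its group of 3, on a log2 axis of normalized read count plus 1, for MEFs (grey), Cont (blue), Sm3CA (red) and ESCs (green). Pou5f1 rises from day 3 to day 10 in both series, Sox2 and Klf4 stay below all ESC libraries, and Myc is highest in MEFs.

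The second question was how the factors changed over the days of doxycycline. Pou5f1 was the factor that rose in both series. A fall of Myc was called in Sm3CA and not in Cont, and Klf4 and Sox2 passed the test in no step. From day 3 to day 10, 1 factor was called in Cont, where 25.3% of the 10237 genes tested were called, and 2 were called in Sm3CA, where 33.7% were called.

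Pou5f1 rose from day 3 to day 6 in both series. In Cont its normalized counts were 25.0, 14.3 and 19.5 at day 3, then 56.8, 75.6 and 57.1 (day 6), 82.6, 64.4 and 91.3 (day 8) and 80.2, 104 and 118 (day 10). In Sm3CA they were 20.7, 15.8 and 16.7 at day 3, then 105, 81.5 and 81.0 (day 6), 83.4, 61.9 and 94.4 (day 8) and 130.4, 139 and 118 (day 10). In both series every library of day 6 stood above every library of day 3.

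The step from day 3 to day 6 was 1.65 ± 0.25 (SE) on the log2 scale in Cont, a 3.13-fold rise (adjusted p = 2.58e-05 in edgeR), among 9.12% of genes called. The same step was 2.33 ± 0.25 in Sm3CA, a 5.04-fold rise (adjusted p = 1.21e-08), among 18.6% of genes called. Later steps in Cont were 0.33 (adjusted p = 0.558) from day 6 to day 8 and 0.34 (adjusted p = 0.493) from day 8 to day 10, and no factor was called in either, where 1.69% and 2.4% of genes were called. By edgeR without adjustment, 0 and 1 of the 4 factors had p under 0.05 in those steps, beside 1333 and 1474 of the 10237 genes tested. DESeq2 called 0 factors in both.

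In Sm3CA, Pou5f1 did not change beyond its spread from day 6 to day 8 (-0.18 ± 0.21, adjusted p = 0.671 in edgeR). In that step 6.68% of genes were called and none of the factors. By edgeR 2 factors had an unadjusted p under 0.05, beside 2198 of the 10237 genes tested, and DESeq2 called 0 factors. From day 8 to day 10 Pou5f1 rose 1.63-fold (0.70 ± 0.21 on the log2 scale, adjusted p = 0.0411), the only factor called among 4.85% of genes. That call was lost in 7 of 12 alternative fits, whose adjusted p ran from 0.0217 to 0.216. Over the whole course the rise was 4.98-fold in Cont (2.32 ± 0.25, adjusted p = 3.02e-09) and 7.23-fold in Sm3CA (2.85 ± 0.25, adjusted p = 2.22e-11), and both kept their calls in every alternative fit. The summed ESC markers moved in the same period, from 23.2 to 37.6 on day 3 to 356 to 901 on day 10 in Cont, and from 16.7 to 25.0 to 927 to 2122 in Sm3CA, and their part in the rise was not tested. Such sums rest on the most abundant markers, and on day 10 the marker Utf1 had a mean of 2.56 in Cont and 3.43 in Sm3CA.

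Sox2, which shares the cassette with Pou5f1, did not rise with it in these counts, which need not hold all cassette RNA. In Cont its normalized counts were 23.2, 13.0 and 25.2 at day 3, then 15.2, 7.66 and 22.0 (day 6), 29.4, 26.4 and 23.3 (day 8) and 19.8, 17.9 and 27.3 (day 10). In Sm3CA they were 19.96, 13.0 and 36.5 at day 3, then 9.40, 9.31 and 13.5 (day 6), 8.03, 11.6 and 20.2 (day 8) and 14.0, 20.8 and 20.8 (day 10). Day 3 and day 10 overlapped in both series, with log2 fold changes of 0.05 ± 0.39 (SE) in Cont (adjusted p = 0.944 in edgeR) and -0.28 ± 0.40 in Sm3CA (adjusted p = 0.618). The lowest group mean was that of day 6 in Sm3CA, 10.7 ± 2.39 (SD, n = 3), where the step from day 3 was -1.10 ± 0.42 with adjusted p = 0.0588. This step passed the threshold without Sm3CA day 3 replicate 2 (-1.38, adjusted p = 0.0308).

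Klf4 passed the threshold in none of these steps. In Cont its libraries held 13.4 to 19.5 normalized counts at day 3, then 19.4 to 25.9 (day 6), 19.0 to 28.3 (day 8) and 8.64 to 13.2 (day 10). In Sm3CA they held 15.4 to 20.9, 21.6 to 27.2, 9.80 to 15.3 and 6.55 to 16.8 on the same days. The largest steps were from day 8 to day 10 in Cont (-1.14 ± 0.35, adjusted p = 0.0796 in edgeR) and from day 6 to day 8 in Sm3CA (-0.92 ± 0.33, adjusted p = 0.0841), and neither passed the threshold although the libraries of the 2 days did not overlap. From day 3 to day 10 the differences were -0.59 ± 0.37 in Cont (adjusted p = 0.256) and -0.60 ± 0.38 in Sm3CA (adjusted p = 0.221).

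Myc fell in Sm3CA. In Cont its normalized counts were 22.2, 24.9 and 29.0 at day 6, then 21.5, 33.8 and 38.2 (day 8) and 17.3, 23.9 and 21.7 (day 10). The change from day 3 to day 10 was -0.54 ± 0.35 (adjusted p = 0.272 in edgeR), although every Cont library of day 10 lay below every Cont library of day 3. In Sm3CA they were 14.5, 16.3 and 16.2 at day 6, then 4.33, 4.29 and 15.3 (day 8) and 14.0, 14.2 and 9.11 (day 10). The fall from day 3 to day 10 in Sm3CA was 2.91-fold (-1.54 ± 0.38 on the log2 scale, adjusted p = 0.00155) and kept its call in every alternative fit. The changes of the 2 series were not shown to differ (adjusted p = 0.441 in edgeR, described below).

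The first step of Myc in Sm3CA, from day 3 to day 6, was -1.21 ± 0.35 with adjusted p = 0.0125. It lost its call without Sm3CA day 3 replicate 3 (-0.94, adjusted p = 0.0973) or without Sm3CA day 6 replicate 1 (-1.16, adjusted p = 0.0571). On day 8 replicates 1 and 2 of Sm3CA had 7 reads each, with an exact 95% counting interval of 2.81 to 14.4 reads, whereas replicate 3 had 19 (11.4 to 29.7). Without replicate 3 the steps from day 6 to day 8 (-1.85, adjusted p = 0.00401) and from day 8 to day 10 (1.52, adjusted p = 0.0405) passed the threshold, and with all libraries they did not (-1.05, adjusted p = 0.108, and 0.72, adjusted p = 0.382).

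The third question was whether the level of the factors differed between the Sm3CA and Cont series. Myc was called on day 8, where it was lower in Sm3CA, and no factor was called on days 3, 6 or 10. On day 8, 1 of 4 factors was called, against 1.04% of all genes tested. The count of genes called on day 8 ran from 21 to 523 when single libraries were left out, so that share rests on few libraries.

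On day 8 the Cont libraries held 21.5, 33.8 and 38.2 normalized counts of Myc and the Sm3CA libraries held 4.33, 4.29 and 15.3. Every Sm3CA library stood below every Cont library. The difference was -2.03 ± 0.37 (SE) on the log2 scale, 4.09-fold lower in Sm3CA, with adjusted p = 0.00287 in edgeR and an approximate 95% interval of -2.76 to -1.30. Over 10 alternative fits that gave an adjusted p, it lay between 3.83e-05 and 0.0489. DESeq2 gave a difference of -2.04 with an unadjusted p of 1.55e-06 but no adjusted p, since its filter on mean counts removed Myc. Without Sm3CA day 8 replicate 3 the difference was -2.84 (adjusted p = 6.98e-05).

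Marker lists of other cell types were read in the same libraries. The ranges of the 2 series were apart for the sum of the ESC markers and overlapped for the other lists. Within that sum the ESC marker Zfp42 had a mean of 20.3 in Cont and 44.6 in Sm3CA on day 8, and it was not called. The ESC markers summed to 41.8 to 57.0 normalized counts in Cont and 67.4 to 94.5 in Sm3CA on day 8, the fibroblast markers to 898 to 1406 and 868 to 1097, the macrophage markers to 1502 to 2477 and 1179 to 2320 and the neural markers to 3843 to 5531 and 1937 to 4956. Of the 8 fibroblast markers, 1 was called on day 8, S100a4, which was lower in Sm3CA by 1.24 ± 0.31 on the log2 scale (adjusted p = 0.0405 in edgeR), and the median of the 8 was -0.42. The part of these markers in the difference of Myc was not tested.

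Klf4 and Sox2 were also lower in every Sm3CA library than in every Cont library on day 8, but did not pass the threshold. How many of all genes were separated in this way was not counted. For Klf4 the libraries held 28.3, 19.0 and 28.0 in Cont and 14.2, 9.80 and 15.3 in Sm3CA, a difference of -0.94 ± 0.33 (adjusted p = 0.139 in edgeR, interval -1.57 to -0.30). For Sox2 the difference was -0.99 ± 0.38 (adjusted p = 0.186, interval -1.73 to -0.24). It passed only without Sm3CA day 8 replicate 3 (-1.39, adjusted p = 0.0480). Pou5f1 on the same day differed by 0.01 ± 0.21 (adjusted p = 0.990, interval -0.40 to 0.42).

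On day 3 the differences lay between -0.17 (Pou5f1) and 0.28 (Myc), with 0 of 4 factors called against 0.0195% of all genes. On day 6, 0 of 4 were called against 0.00977% of all genes. Pou5f1 was the factor with an unadjusted p under 0.05, which 426 of the 10237 genes tested had by edgeR. Its 3 Sm3CA libraries stood above the 3 Cont libraries, with a difference of 0.52 ± 0.21 (adjusted p = 1.00 in edgeR, interval 0.10 to 0.94). On day 10, 0 of 4 were called against 3.58% of all genes. By edgeR 0 of 4 had an unadjusted p under 0.05 on day 10, where 1630 of the 10237 genes tested had. On day 3 it was also 0 of 4, where 523 of the 10237 genes had. DESeq2 called 0 of 4 on each of these 3 days.

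On day 10 the libraries of the series did not overlap for 2 factors, neither of which was called. The share of all genes with libraries so separated was not counted. All Sm3CA libraries lay above all Cont libraries for Pou5f1 (0.37 ± 0.21, adjusted p = 0.401 in edgeR, interval -0.04 to 0.78). All lay below them for Myc (-0.73 ± 0.41, adjusted p = 0.393, interval -1.52 to 0.07). Klf4 (0.02, interval -0.78 to 0.83) and Sox2 (-0.21, interval -1.01 to 0.59) overlapped.

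**Figure D2:**
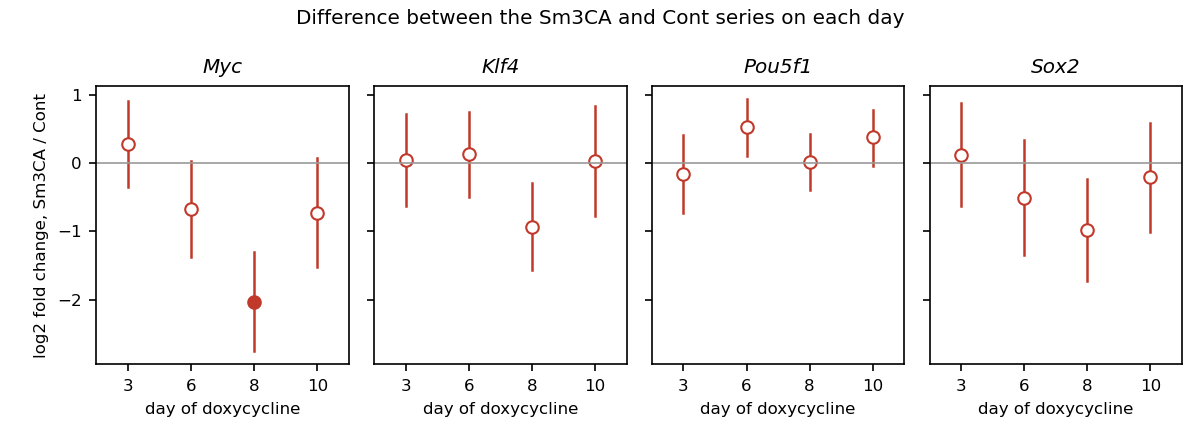
Log2 fold change of Sm3CA over Cont (vertical axis) on each day of doxycycline (horizontal axis), with approximate 95% intervals from the standard error of the edgeR fit of 24 libraries, 3 per group. The filled point, Myc on day 8, passed the threshold at -2.03, and open points did not.

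Whether the difference between the series itself changed over time was tested in the same fit. From day 3 to day 10 it changed by -1.003 ± 0.52 for Myc (adjusted p = 0.441 in edgeR), by 0.54 ± 0.36 for Pou5f1 (adjusted p = 0.603), by -0.33 ± 0.56 for Sox2 and by -0.02 ± 0.53 for Klf4. By edgeR 0 of 4 were called, where 1.01% of genes were. Unadjusted, 0 of 4 had p under 0.05 in edgeR, where 1236 of the 10237 genes tested had, and DESeq2 called 0 of 4. For Myc the change was -1.36 ± 0.52 from day 6 to day 8 (adjusted p = 0.419) and 1.30 ± 0.56 from day 8 to day 10 (adjusted p = 0.349), so the day on which Myc was called is not shown to differ from the days before and after it. In those steps 0.0% and 0.186% of genes were called and 0 factors. In edgeR 2 and 1 factors had an unadjusted p under 0.05, beside 936 and 1130 of the 10237 genes tested. DESeq2 gave no adjusted p for any of the 4 in these steps. From day 3 to day 6 the largest change was also that of Myc (-0.95 ± 0.48, adjusted p = 0.976 in edgeR), with 0.0% of genes called. Then 0 factors had an unadjusted p under 0.05, where 510 of the 10237 genes tested had, and DESeq2 called 0 factors. The later steps of Myc passed without Sm3CA day 8 replicate 3 (-2.16, adjusted p = 0.0439, and 2.11, adjusted p = 0.0472).

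The factors are carried by 1 cassette, and ratios of their reads within a library do not depend on the scaling between libraries. The ratio of Pou5f1 to Sox2 reads was near 1 on day 3 and higher from day 6 on. On the log2 scale it was -0.04 ± 0.28 (SD, n = 3) in Cont at day 3, then 2.15 ± 0.96 (day 6), 1.57 ± 0.35 (day 8) and 2.19 ± 0.27 (day 10). In Sm3CA it was -0.26 ± 0.74, 3.01 ± 0.45, 2.64 ± 0.60 and 2.78 ± 0.35 on the same days. Every library from day 6 on lay above every day 3 library of its series, and the 3 ESC libraries, at -0.22, -1.79 and 0.33, lay below all libraries of days 6 to 10. The ESC mean was -0.56 ± 1.10, and 0.05 without replicate 2, which held the lowest value.

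The ratio of Pou5f1 to Klf4 reads was highest on day 10. It went from 0.18 ± 0.63 (SD, n = 3) on day 3 to 3.10 ± 0.04 on day 10 in Cont and from 0.01 ± 0.38 to 3.49 ± 0.72 in Sm3CA, and ESCs had 1.78 ± 0.66, or 2.12 without replicate 2. On day 10 all libraries of both series lay above all ESC libraries, of which the highest was 2.42 and the lowest of the day 10 libraries 2.903. The ratio of Pou5f1 to Myc went from -0.65 ± 0.68 to 2.23 ± 0.17 in Cont and from -1.01 ± 0.49 to 3.33 ± 0.24 in Sm3CA, and on day 10 the Sm3CA libraries (3.15 to 3.61) lay above the Cont libraries (2.09 to 2.42). No test was run on the ratios.

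**Figure D3:**
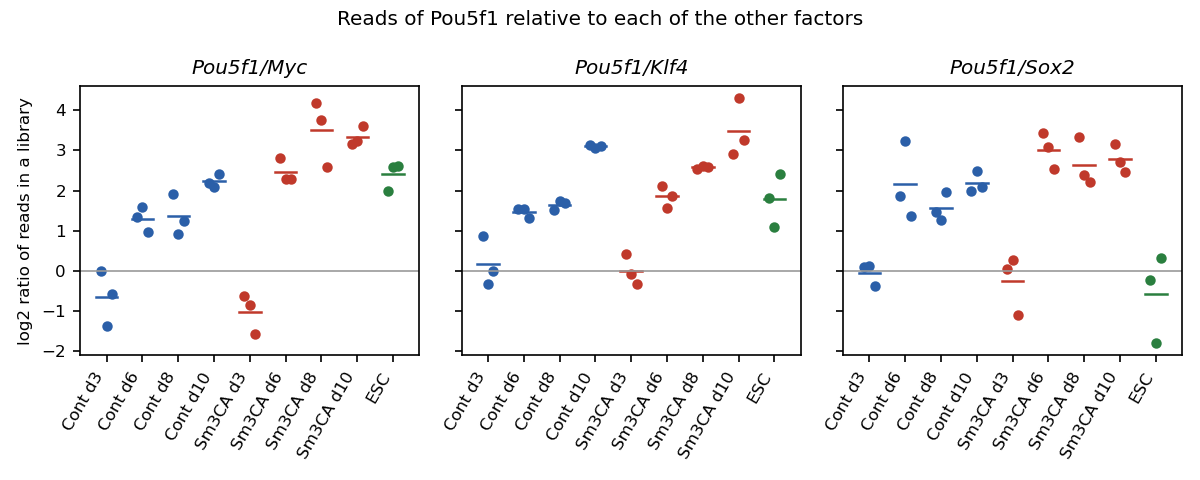
Log2 ratio of the reads of Pou5f1 to those of Myc, Klf4 and Sox2 within each library (points, with the mean of 3 as a bar) for Cont (blue), Sm3CA (red) and ESCs (green). The ratios start near or below 0 on day 3 and rise by day 6, and in the ESC libraries the ratio to Sox2 is -0.22, -1.79 and 0.33, the lowest in replicate 2, below every library of days 6 to 10.

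The fourth question was how the read counts of the factors compared with those of ESCs, which express the endogenous genes. All 4 had higher counts in ESCs than on day 10 in both series. The share of genes called was 51.8% against Cont and 45.8% against Sm3CA. How much of the cassette RNA was read is not known, so the gaps need not be those of total factor RNA. The gap was widest for Sox2 and narrower for Pou5f1 and Myc.

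Sox2 in the ESC libraries was 227, 997 and 271 normalized counts, with the highest value in the replicate that stood apart. Against Cont day 10 the log2 fold change was 4.46 ± 0.41 (SE) with all libraries (adjusted p = 2.81e-12 in edgeR) and 3.56 ± 0.34 without ESC replicate 2 (adjusted p = 3.98e-12). Against Sm3CA day 10 it was 4.66 ± 0.42 and 3.74 ± 0.35. The size of the gap, but not its direction, thus moved by over 1.5 times with that library.

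Klf4 was 54.8, 134 and 63.0 in the ESC libraries. Its log2 fold change was 2.83 ± 0.36 over Cont day 10 (adjusted p = 1.39e-08 in edgeR) and 2.79 ± 0.37 over Sm3CA day 10 (adjusted p = 3.96e-08). Without ESC replicate 2 these were 2.43 and 2.37, and both kept their calls. No reprogramming library reached the lowest ESC library, since the highest of the 24 held 28.3.

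Pou5f1 came closest to its ESC level in the Sm3CA series. It was 195, 287 and 341 in the ESC libraries, and the log2 fold change was 1.43 ± 0.23 over Cont day 10 (adjusted p = 1.53e-06 in edgeR) and 1.05 ± 0.23 over Sm3CA day 10 (adjusted p = 2.07e-04). Without ESC replicate 2 it was 1.46 and 1.05. Over MEFs, ESCs were at least 89.6-fold higher, or at least 87.5-fold without that replicate.

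Myc was 48.4, 47.0 and 55.3 in the ESC libraries. It was 1.26 ± 0.34 higher on the log2 scale than in Cont day 10 (adjusted p = 0.00162 in edgeR) and 1.98 ± 0.37 higher than in Sm3CA day 10 (adjusted p = 2.28e-05). Without ESC replicate 2 these were 1.36 and 2.05, and both kept their calls. Against MEFs 3 factors were called, among 59.6% of genes, and Myc was not (-0.55 ± 0.30, adjusted p = 0.110, and -0.49, adjusted p = 0.192, without ESC replicate 2), although all ESC libraries lay below all MEF libraries. DESeq2 called that difference (-0.65, adjusted p = 0.0447).

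Ordered by group mean, Pou5f1 ran from ESC (274) to Sm3CA day 10 (129), Cont day 10 (100.7), Sm3CA day 6 (89.2), Sm3CA day 8 (79.9), Cont day 8 (79.4), Cont day 6 (63.2), Cont day 3 (19.6), Sm3CA day 3 (17.7) and MEF (0). Neighbours whose libraries did not overlap were ESC and Sm3CA day 10, Sm3CA day 10 and Cont day 10, Cont day 6 and Cont day 3, and Sm3CA day 3 and MEF. For Sox2 the order began with ESC (498) and Cont day 8 (26.4) and ended with Sm3CA day 6 (10.7) and MEF (1.01), and only these 2 steps were free of overlap. For Klf4 only ESC (83.8) stood clear of its neighbour, Cont day 8 (25.1), and the other 8 steps overlapped. For Myc the order was headed by MEF (79.0) and ESC (50.2), which did not overlap, and Cont day 10 (21.0), Sm3CA day 6 (15.7) and Sm3CA day 10 (12.4) were clear of each other, with Sm3CA day 8 (7.98) last. Without replicate 2 the ESC means were 268 (Pou5f1), 248.9 (Sox2), 58.9 (Klf4) and 51.9 (Myc), which leaves their place in each order as given.

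Other genes with a like profile over the 10 group means differed from factor to factor. The closest to Pou5f1 were Gtsf1l (Pearson r = 0.994), Kit (0.983), a receptor tyrosine kinase of germ cells, and L1td1 (0.982). Closest to Myc were Cd276 (0.943), Jmjd4 (0.922) and Maea (0.920), and closest to Sox2 were Prpf4 (0.965), Zfp710 (0.963) and Xrcc5 (0.959). The ribosomal protein genes Rps9 (0.965) and Rps21 (0.965) and the histone gene Hist1h1a (0.962) were closest to Klf4. No factor was among the 3 genes closest to another, and their correlations with each other ran from -0.57 (Myc and Pou5f1) to 0.735 (Pou5f1 and Sox2). These values are over 10 points that share libraries and depth, among 10978 genes searched. With ESC replicate 2 left out of its group mean, the 3 genes closest to Pou5f1 and to Klf4 were again these, whereas Cdadc1 (0.942) and Hadha (0.936) took the place of Jmjd4 and Maea for Myc, and Wdr73 (0.964) and Urb2 (0.962) that of Prpf4 and Xrcc5 for Sox2.

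Known targets of the factors were followed over the same days. Of 12 listed targets of Oct4 and Sox2, 11 passed the filter on low counts, and Utf1, with 1 read on day 3 and 7 on day 10 in Cont, did not. Genes with no read on day 3 passed through later groups in which they were high, so no count or median over the tested targets is given. Nanog, a core pluripotency gene, had no read on day 3 in either series and 45 reads in Cont and 44 in Sm3CA on day 10. Zfp42 (Rex1), a marker of naive pluripotency, had 40 reads on day 3 and 327 on day 10 in Cont (3.19 ± 0.32 on the log2 scale, adjusted p = 8.30e-10 in edgeR) and 34 and 573 in Sm3CA (4.55 ± 0.32, adjusted p = 1.66e-13). It was also the target called between the series on day 10, higher in Sm3CA by 1.03 ± 0.25 on the log2 scale (adjusted p = 0.00990 in edgeR).

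Of 10 epithelial genes that Klf4 is known to act on, all of them tested, 8 rose from day 3 to day 10 in Cont (median 2.63), where 13.6% of all genes rose, and 9 in Sm3CA (median 3.30), where 17.6% rose. The medians over all genes were 0.09 and 0.05. The filter on low counts dropped no gene of this list, but some passed it through later groups. On day 3 in Cont, Cldn7 had 1 read and Esrp1 had 2, so the counts and medians rest in part on such genes. The tight junction gene Cldn4 went from 1 read to 144 in Cont (adjusted p = 7.44e-10 in edgeR) and from 7 to 119 in Sm3CA (4.51 ± 0.52 on the log2 scale, adjusted p = 1.52e-08). Cdh1, the gene of E-cadherin, was the 1 gene of this list called between the series on day 8, where 1.04% of all genes were called, higher in Sm3CA by 0.76 ± 0.19 (adjusted p = 0.0443). In ESCs 5 of the 10 were lower than in Cont day 10 and 1 was higher, with the desmosome gene Dsp (-6.35 ± 0.31, adjusted p = 8.22e-21) and the keratin gene Krt8 (-6.33 ± 0.39, adjusted p = 1.12e-17) the lowest, among 30.3% of genes lower and 21.5% higher. Without ESC replicate 2 these 2 changes were -6.77 (adjusted p = 4.40e-21) and -5.88 (adjusted p = 2.73e-18).

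The 12 Myc targets are genes of nucleolar proteins and of growth and division. Of these, 10 were higher and 1 lower on day 3 in Cont than in MEFs, where 22.6% of genes were higher and 20.9% lower, and the median was 1.21 on the log2 scale while Myc itself was lower. From day 3 to day 10, 10 fell in Cont (median -0.74, with 11.6% of all genes falling) and 8 in Sm3CA (median -0.71, with 16.2% falling). Nme1, a nucleoside diphosphate kinase, fell by 1.31 ± 0.17 in Cont (adjusted p = 2.27e-07 in edgeR) and by 1.56 ± 0.17 in Sm3CA (adjusted p = 6.32e-09). On day 8, when Myc was lower in Sm3CA, 1 of the 12 was called between the series, beside 1.04% of all genes (21 to 523 genes when single libraries were left out). This was the transferrin receptor gene Tfrc, which was higher in Sm3CA by 0.67 ± 0.17 (adjusted p = 0.0431).

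**Figure D4:**
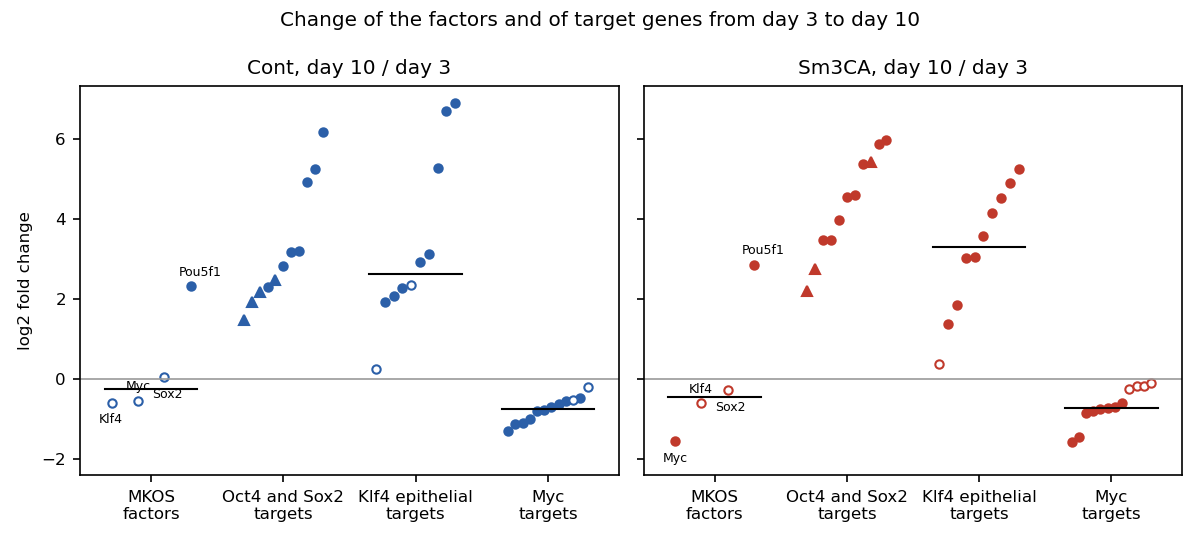
Log2 change from day 3 to day 10 of the 4 factors and of the 3 target lists, 1 point per gene, with filled points for genes past the threshold and bars for the medians of the lists tested in full. The bar of the Klf4 targets includes genes that passed the filter on low counts through later groups in which they were high. Triangles are genes with no read on day 3, drawn at their lower bound, and the Oct4 and Sox2 targets are the 11 that passed the filter on low counts, while all 12 Myc targets lie below 0.

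Relatives of the factors were compared in the same fits. Of 16 other Klf genes, 11 were tested against MEFs, and 5 were higher and 2 lower in Cont day 3, beside 22.6% and 20.9% of all genes, with Klf6 (an early response gene) down by 3.02 ± 0.21 on the log2 scale (adjusted p = 1.01e-15 in edgeR) and Klf8 up by 3.96 ± 0.39 (adjusted p = 3.39e-11). Of 9 genes of the Myc and Max network, 3 were higher and 1 lower in the same comparison, near those shares of all genes. Mxd1, which competes with Myc for Max, rose from day 3 to day 10 by 2.87 ± 0.48 in Cont (adjusted p = 1.81e-05) and by 3.37 ± 0.47 in Sm3CA (adjusted p = 5.99e-07). Mycn, a close relative of Myc, was higher in ESCs than in Cont day 10 by 4.92 ± 0.53 (adjusted p = 9.42e-10), and by 4.43 ± 0.58 without ESC replicate 2.

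Few other Sox and Pou genes had enough reads. Of 5 other Sox genes tested, 1 was higher and 2 lower in Cont day 3 than in MEFs, where 22.6% and 20.9% of all genes were. Both Pou genes tested were higher, Pou2f1 by 1.21 ± 0.35 (adjusted p = 0.00436 in edgeR) and Pou4f2, a gene of neurons, from 0 to 32 reads.

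The cassette locus and the neighbours of the factors were read last. Sp3, which carries the cassette on 1 allele, rose from day 3 to day 10 by 0.95 ± 0.35 in Cont (adjusted p = 0.0397 in edgeR) and by 1.57 ± 0.35 in Sm3CA (adjusted p = 5.93e-04), and its difference between the series was -0.01 ± 0.32 on day 8 (adjusted p = 0.994) and 0.29 ± 0.32 on day 10 (adjusted p = 0.733). Pvt1, the non-coding gene that follows Myc, was lower in Cont day 3 than in MEFs by 1.30 ± 0.46 (adjusted p = 0.0204), as Myc was. On day 8, Pvt1 had 54 reads in Cont and 93 in Sm3CA, a difference of 0.27 ± 0.42 (adjusted p = 0.815). Tcf19, the gene after Pou5f1, had 48 reads on day 3 and 13 on day 10 in Cont and 39 and 21 in Sm3CA. These are raw reads, from 3 wells per library on day 3 and 2 on day 10, and no test of the change is given. Mir1897, before Sox2, had 1 read in all 30 libraries, and the other neighbours (Gm18788, Gm22150, Gm12506, Gm32362 and Gm34941) had no row among the counts.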

How the data were processed

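Wild-type MEFs, ESCs and reprogramming cells with BFP (Cont) or Smad3CA (Sm3CA) vectors were profiled by STRT RNA-seq, with 3 biological replicates in each of 10 groups and 84 wells. The values the authors deposited are raw read counts without normalization, which they preferred to molecule counts because molecule counting lost reads of rare genes. Bowtie 0.12.9, DESeq2 1.6.3 and mm10 are named in the submitters' processing notes, and the annotation version is not given in the sources used here. Reads rather than molecules were counted, so amplification copies count more than once, and counting intervals and floors (3 reads) cover counting error only. How the counting divided reads between a gene and its cassette copy is not stated.

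Wells of a replicate were summed (3, or 2 on day 10), which gave 30 libraries with a median of 1602511 reads. For the 4 factors, wells of a library differed by about counting error (chi-square over degrees of freedom 0.837 to 1.20). Groups and replicate numbers came from the labels. No 2 replicates of a group held identical values (0 of 30 pairs).

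Counts were tested with edgeR 4.0.16 in R 4.3.3 (TMM, filterByExpr, quasi-likelihood) and Benjamini-Hochberg adjustment over all genes tested, with a threshold of 0.05. Comparisons of Cont, Sm3CA and days used 1 fit of the 24 reprogramming libraries (10237 genes), and those with MEF or ESC used all 30 (10979 genes). Normalized counts are reads divided by size factors of DESeq2 1.42.0. Ratios within a library added 0.5 reads to each count. Bounds against a group at 0 used 3 reads per library. Fits were tested on simulated data. Positions are from GENCODE (GRCm38), promoters and neighbouring genes from RefSeq (GRCm38.p6). Python 3.11.15, pandas 2.3.3 and matplotlib 3.10.9 were used.

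Named genes were the 4 factors, the 3 genes with the closest profile to each, Sp3, Sox2ot, Pvt1, the nearest gene on each side of each factor, and at most 3 called genes of each list with the largest change. The lists were the other Klf, Sox and Pou genes, the Myc and Max network, targets of Oct4 and Sox2, epithelial targets of Klf4, Myc targets, and markers of fibroblasts, ESCs, macrophages and neurons. The factors and lists were chosen with earlier results of these data known.

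The design text pairs replicates over days within a series. Deviations of same-numbered libraries from their group means correlated at -0.121 to 0.185 between adjacent days of a series and at -0.162 to 0.091 between Cont and Sm3CA (8628 genes), and the fits reported had no block. Alternatives were the size factors and the Wald test of DESeq2, all genes with a read kept, fits of 30 or 6 libraries, the replicate block, a pseudocount of 1 read in the ratios, and each library left out in turn. Sequences of the proteins and of cassette transcripts were not used here.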

Additional observations from a re-analysis of the deposited data

How the results depend on the processing

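Of 84 comparisons of a factor, 25 were called, and 23 of these kept direction and call under every alternative that gave an adjusted p. The exceptions were Pou5f1 in Sm3CA from day 8 to day 10 and Myc in Sm3CA from day 3 to day 6, described above. Among uncalled comparisons 52 stayed uncalled and 14 changed sign. Leaving out single libraries gave, for Sm3CA over Cont on day 3, -0.31 to 0.04 for Pou5f1, -0.34 to 0.40 for Sox2 and -0.11 to 0.17 for Klf4. On day 8 it gave -0.13 to 0.17 for Pou5f1 and -1.39 to -0.72 for Sox2, and on day 10 -0.32 to 0.02 for Sox2 and -0.30 to 0.35 for Klf4. For the change of that difference from day 3 to day 10 it gave -0.61 to 0.14 for Sox2 and -0.34 to 0.31 for Klf4 (0.00 without a filter on low counts), and to day 6 -0.04 to 0.24 for Klf4. From day 3 to day 10 Sox2 ranged from -0.19 to 0.22 in Cont and from -0.57 to 0.17 in Sm3CA. In Sm3CA, Sox2 ranged from -0.11 to 0.55 from day 6 to day 8, Klf4 from -0.52 to 0.13 from day 8 to day 10, and Klf4 on day 3 over MEFs from -0.37 to 0.00. The causes were not tested.

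The replicate block changed no call of a factor (Myc on day 8 was -2.02 with adjusted p = 0.00166), and moved one count of genes by over 1.5 times, from 19 to 29 for the change between days 8 and 10. With every gene that had a read kept, 264 genes were called on day 8 in place of 106, and the fit of 30 libraries called 32. The 24 reprogramming libraries held 7 to 64 reads of Myc, 6 to 47 of Klf4, 11 to 153 of Pou5f1 and 8 to 39 of Sox2, which limits what could be called. Scaling by spike-ins was not run, since the counts held 0 such rows, and exact permutation of 3 against 3 libraries cannot go below p = 0.1.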

Other observations

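Marker lists of other cell types moved with the groups in which the factors were compared. The 5 neural markers summed to 353 to 427 normalized counts in MEFs and to 4926 to 6513 in Cont day 3, with 2 of 4 tested genes higher and 1 lower, beside 22.6% and 20.9% of all genes. The 8 fibroblast markers had 1 gene higher and 6 lower in the same comparison, and 4 were lower in Sm3CA than in Cont on day 10, when 3.58% of all genes were called. Of 6 ESC markers, 5 passed the filter on low counts, some of them only through groups in which they were high. No count over days or between the series is therefore given. Most of these markers are also in the list of Oct4 and Sox2 targets, among them Zfp42, whose difference between the series on day 10 is given above. Of 4 tested macrophage markers, 3 rose from day 3 to day 10 in each series, beside 13.6% of all genes in Cont and 17.6% in Sm3CA, although the cells were sorted for mOrange, and in ESCs 3 of the 5 had no read.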
